A study of Homo sapiens with 6 samples.

Results

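The genes described here are the expressed long noncoding RNAs of human ovarian carcinoma cells that express BARD1 and of their control cells. The 248 members were chosen by 2 values of the deposited gene table, a biotype of lincRNA or antisense and a mean over the 6 libraries of at least 3 CPM (count over the library total, times 1000000). They are 126 lincRNA and 122 antisense genes, and make up 1.88% of the 13212 genes of these biotypes among 58735 genes in all. No gene carried the biotype lncRNA, which the rule would also have taken, and 7734 genes of the biotypes had no count in any library. The level of 3 CPM was met in both groups by 217 members, through the BARD1-expressing mean alone by 15 and through the control mean alone by 16. Just inside the threshold lay ST20-AS1 at 3.005, APTR at 3.019 and AC245452.1 at 3.028 CPM. Just outside it lay AC005229.4 at 2.983, LINC01521 at 2.979 and AC009133.1 at 2.977 CPM. All 248 members passed the filter on low counts, none had a count of 0 in a library, and the lowest single count was 12.

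BARD1-expressing cells (3 libraries) were made with a lentivirus that carries a BARD1 open reading frame with GFP and are labelled as stable cells at 48 h. Control cells (3 libraries) carry the same stable and 48 h labels, and the labels do not say what vector they hold. The labels disagree on the line: titles have OVCAR8ip1, but the tags for cell line and tissue have SKOV3ip1 and its tumors, so the material is called by its 2 groups. Differences caused by BARD1 and other differences between the 2 kinds of cells cannot be told apart. In such bulk RNA, fewer cells that hold a transcript and less of it per cell cannot be told apart either.

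The libraries held 12744310, 24349158 and 15147685 counts in BARD1-expressing replicates 1 to 3 and 23992482, 22767552 and 21819199 counts in control replicates 1 to 3. BARD1 itself stood at 49.0, 44.3 and 45.7 CPM in BARD1-expressing libraries and at 17.1, 17.2 and 19.4 CPM in control libraries, a log2 fold change of 1.37 (adjusted p = 4.67e-12, edgeR's quasi-likelihood test with Benjamini-Hochberg adjustment). Of 8 markers of serous ovarian carcinoma 7 reached 1 CPM, with a summed level of 3738 to 3979 CPM in BARD1-expressing libraries and 3759 to 3859 CPM in control libraries, and MUC16 was at 0 in all of them. Among these 8 markers 3 were called higher and 1 lower. Of 6 endothelial markers 1 (KDR) reached 1 CPM, and their summed level was 1.48 to 2.31 CPM in BARD1-expressing and 0.791 to 1.01 CPM in control libraries, with 1 called higher and 0 lower. Of 8 fibroblast and pericyte markers 3 did (COL1A1, LUM and PDGFRB), with DCN at 0. Their summed level was 839 to 884 CPM in BARD1-expressing and 1009 to 1094 CPM in control libraries, with 3 called higher and 1 lower. Neither sum overlapped between the groups, and the part of such markers in the results was not tested.

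Long noncoding RNAs are transcripts that are not known to be read into protein. Some act as scaffolds of nuclear bodies, some bind proteins or microRNAs in the cytoplasm, and others serve as the primary transcript from which small nucleolar RNAs or microRNAs are cut. Antisense genes lie across a coding gene on the other strand, and their transcription can run together with that of the coding gene or against it. RNA was selected here through its poly(A) tail, so transcripts without a tail are read poorly. The labels mention directional and non-directional libraries and leave the counting strand unstated, so reads from an antisense gene and from the gene it overlaps cannot be told apart.

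Sequences of several members described below are given as a description, and whether they set these members apart was not tested. AC123912.4, which had the highest fold change of all members, has 1 annotated transcript of 1178 bases in 2 exons (GENCODE release 29). The 60 bases across its exon junction are given with the 8 bases on each side of the junction in capitals, on the minus strand of GRCh38, between the exons at chr19:21586863-21587322 and chr19:21570822-21571539.
AC123912.4 junction: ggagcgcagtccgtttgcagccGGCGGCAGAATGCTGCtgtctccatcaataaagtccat
CYTOR and MIR4435-2HG, both higher in BARD1-expressing cells, are near-identical copies on chromosome 2. Their RefSeq starts are shown because they share a long run of letters. Each window runs from 120 bases before the RefSeq start to 50 bases after it (GRCh38.p14, chr2:87455307-87455476 on the plus strand and chr2:111495112-111495281 on the minus strand), with matches to the motifs named below in capitals.
CYTOR start: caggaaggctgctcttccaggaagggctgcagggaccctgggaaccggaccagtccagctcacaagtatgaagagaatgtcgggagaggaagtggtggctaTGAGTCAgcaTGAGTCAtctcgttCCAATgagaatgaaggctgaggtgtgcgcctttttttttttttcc
MIR4435-2HG start: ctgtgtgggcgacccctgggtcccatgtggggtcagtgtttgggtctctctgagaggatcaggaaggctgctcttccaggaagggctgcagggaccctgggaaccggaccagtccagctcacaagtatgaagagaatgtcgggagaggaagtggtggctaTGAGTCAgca
A run of 111 bases, from base 1 of the CYTOR window and base 60 of the MIR4435-2HG window, is the same in both. It lies before the RefSeq start of CYTOR and spans that of MIR4435-2HG, and the AP-1 motif at -19 of CYTOR is the one at 41 of MIR4435-2HG. These RefSeq starts lie 646 bases (CYTOR) and 28215 bases (MIR4435-2HG) from the starts annotated for the counted genes. Both genes hold a hairpin of the same microRNA. MIR193BHG, which was lower, holds 2 other microRNAs with seeds of their own. The mature RNAs (RefSeq, GRCh38.p14) are given with the seed, bases 2 to 8, in capitals.
hsa-miR-4435 from both loci: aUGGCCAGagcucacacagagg
hsa-miR-193b-3p from MIR193BHG: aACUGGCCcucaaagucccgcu
hsa-miR-365a-3p from MIR193BHG: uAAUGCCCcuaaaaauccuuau
The RefSeq starts of the 3 snoRNA host genes called lower are given for comparison with each other (SNHG8 at chr4:118278642-118278811 on the plus strand, SNHG12 at chr1:28581824-28581993 and SNHG19 at chr16:2155309-2155478 on the minus strand), with motif matches in capitals. They lie 53 bases (SNHG8), 1259 bases (SNHG12) and 0 bases (SNHG19) from the annotated gene starts.
SNHG8 start: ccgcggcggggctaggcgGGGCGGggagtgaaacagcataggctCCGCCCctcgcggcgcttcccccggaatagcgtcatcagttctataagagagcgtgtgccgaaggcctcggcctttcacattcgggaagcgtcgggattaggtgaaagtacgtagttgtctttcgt
SNHG12 start: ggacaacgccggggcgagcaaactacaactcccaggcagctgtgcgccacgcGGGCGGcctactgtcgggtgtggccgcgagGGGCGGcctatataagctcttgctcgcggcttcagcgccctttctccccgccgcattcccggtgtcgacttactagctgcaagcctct
SNHG19 start: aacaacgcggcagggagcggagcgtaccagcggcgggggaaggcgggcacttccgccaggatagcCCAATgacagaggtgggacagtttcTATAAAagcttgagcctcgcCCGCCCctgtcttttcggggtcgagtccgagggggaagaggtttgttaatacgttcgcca
The RefSeq start of FOXD3-AS1 (chr1:63322409-63322578, minus strand), 1983 bases from the annotated gene start, is given because this antisense gene and the coding gene it overlaps were both higher. It holds an E-box at -58 that overlaps the antioxidant response element core at -54, and a CRE at -44.
FOXD3-AS1 start: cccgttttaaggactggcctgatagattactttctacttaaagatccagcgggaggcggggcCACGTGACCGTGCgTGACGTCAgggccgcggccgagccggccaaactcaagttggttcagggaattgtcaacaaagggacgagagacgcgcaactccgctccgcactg

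Taken as a class, the members fell more often than they rose in BARD1-expressing cells. Of 248 members 25 (10.1%) were higher and 53 (21.4%) were lower at an adjusted p under 0.05 (edgeR's quasi-likelihood test, Benjamini-Hochberg over 15400 tested genes). The same call took 16.5% of all tested genes as higher and 12.4% as lower, and among 11057 protein-coding genes of at least 3 CPM 19.0% as higher and 13.9% as lower. The median log2 fold change of BARD1-expressing over control cells was -0.09 over members, -0.00 over all tested genes and 0.01 over those protein-coding genes. Of 100 genes of 8 other noncoding biotypes with a mean of at least 3 CPM, 11 were higher and 14 lower, with a median of -0.08. Their share of higher calls and their median were thus near those of members, while members were called lower more often. Whether members differ from these genes was not tested. The called members had a median size of 0.54 on the log2 scale, in either direction. Of them 3 were at least 2-fold higher and 3 at least 2-fold lower. The background of such calls was 3.12% higher and 1.59% lower over all tested genes, and 1.56% and 0.841% over the protein-coding genes. Values of the 2 groups did not overlap in 106 members (42.7%), a share near the background of 40.9% of all tested genes and 44.8% of the protein-coding genes.

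The excess of lower calls was present in both biotypes, with 15 higher and 28 lower of 126 lincRNA genes and 10 higher and 25 lower of 122 antisense genes. Among the 217 members at 3 CPM in both groups 18 were higher and 45 lower. Members of 3 to 20 CPM were higher in 7.35% and lower in 20.6% of 204 genes, while protein-coding genes of that level were higher in 18.5% and lower in 11.8% of 3624. Of 50 members with a single block of exons 5 were higher and 3 lower, and of the 198 with more blocks 20 were higher and 50 lower. The share of all counts that fell on members did not separate the groups, at 0.398%, 0.405% and 0.395% in BARD1-expressing libraries and 0.417%, 0.391% and 0.394% in control libraries. Control replicate 1 was the highest control library in 51.2% of members, against 32.2% of the protein-coding genes. At 3 to 20 CPM it was so in 51.0% of members and 39.2% of protein-coding genes. Among the 100 genes of other noncoding biotypes the share was 52.0%. Without that library 26 members were higher and 38 lower, with a median log2 fold change of -0.06, and its part in the lower calls was not tested.

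**Figure D1:**
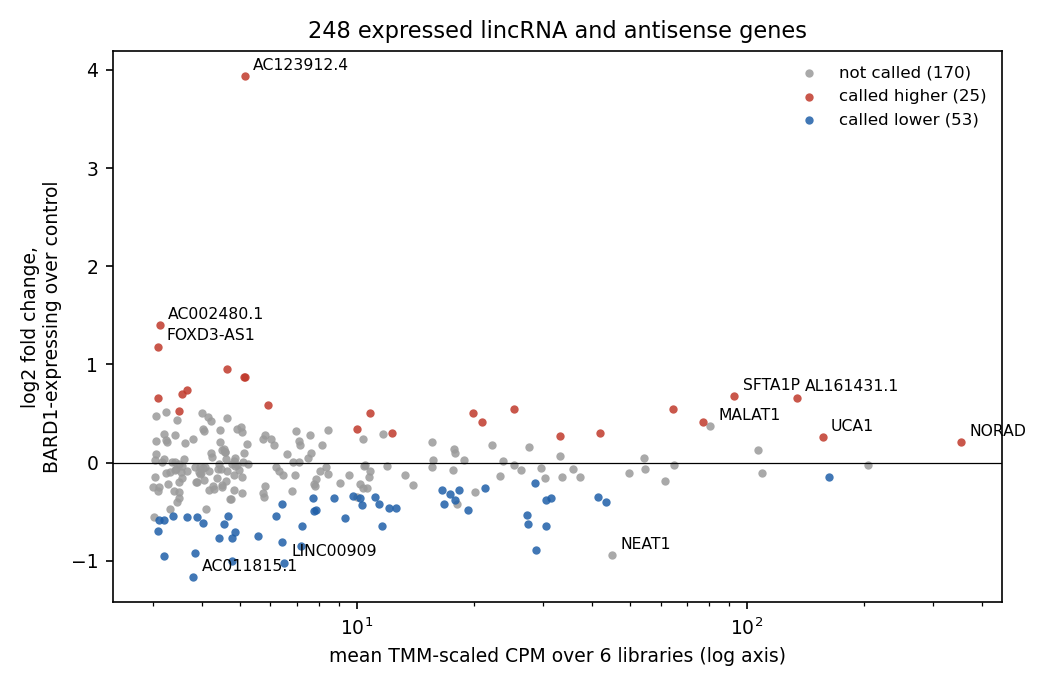
Log2 fold change of BARD1-expressing over control cells (vertical axis) against the mean TMM-scaled CPM over 6 libraries (log axis) for the 248 members, 1 point each. Red points are the 25 members called higher, blue points the 53 called lower and grey points the rest; AC123912.4 stands alone at 3.94.

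A locus on chromosome 19 held the member with the highest fold change. AC123912.4 (ENSG00000268555, chr19:21570822-21587322, minus strand, a lincRNA) had 119, 229 and 154 counts in BARD1-expressing libraries and 13, 18 and 12 counts in control libraries. All BARD1-expressing libraries lay above all control libraries, at 9.36, 9.46 and 10.2 CPM against 0.536, 0.788 and 0.554 CPM. Its mean was 9.68 ± 0.471 CPM in BARD1-expressing cells and 0.626 ± 0.141 CPM in control cells (SD, n = 3 each), a log2 fold change of 3.94 ± 0.203 (SE, adjusted p = 5.1e-13, edgeR). It met the level threshold through the BARD1-expressing mean alone. Neighbouring genes of the same zinc finger cluster were also higher. ZNF429, 14.6 kb away, had a log2 fold change of 0.51, the lincRNA LINC00664 had 0.55, ZNF100 had 0.80, and ZNF208, 346 kb away, had 2.58 with 5.31 ± 0.403 CPM in BARD1-expressing and 0.879 ± 0.234 CPM in control cells. ZNF43 between them was not called, at 0.05.

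Other members with high fold changes lay against coding genes. AC002480.1 (chr7:22563337-22573996) stood at 4.25, 5.16 and 4.18 CPM in BARD1-expressing libraries and at 2.10, 1.58 and 1.48 CPM in control libraries. The groups did not overlap, and its log2 fold change was 1.40 ± 0.208 (adjusted p = 1.26e-05, edgeR). STEAP1B, which it overlaps, was not called at -0.28 (adjusted p = 0.0521, edgeR). IL6, the gene of an inflammatory cytokine 152 kb away, was higher with the same log2 fold change of 1.40. It stood at 10.6 ± 0.747 CPM in BARD1-expressing against 3.99 ± 0.976 CPM in control cells. Other tested neighbours were not called higher. The pseudogene EEF1A1P6, 51.3 kb away, was lower at -0.35 (adjusted p = 9.36e-05, edgeR). AC073072.1 at -1.05 and 151 kb, RAPGEF5 at 0.32 and 206 kb, and TOMM7 at 0.16 and 239 kb were not called. FOXD3-AS1, antisense to the gene of a forkhead transcription factor of the neural crest, stood at 3.78, 4.62 and 4.45 CPM in BARD1-expressing libraries and at 2.23, 2.19 and 1.25 CPM in control libraries. Again the groups did not overlap, at a log2 fold change of 1.18 ± 0.220 (adjusted p = 0.000209, edgeR), and FOXD3 was higher too, at 0.95. ABALON lies across BCL2L1, the gene of the survival protein Bcl-xL, with 1424 bases of shared exon. Both were higher, ABALON by a log2 fold change of 0.95 and BCL2L1 by 0.53. C10orf25 and the zinc finger gene ZNF22, whose starts are 413 bases apart, were higher by 0.87 and 1.03. AC002480.1 and FOXD3-AS1 met the level threshold through the BARD1-expressing mean alone.

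Among called members without overlap between the groups, the 10 with the highest fold change also held AC137810.1 at 0.87, LINC01547 at 0.74, AC108463.2 at 0.70, SFTA1P at 0.68 and AC015922.3 at 0.66. LINC01547, AC108463.2 and AC015922.3 met the level threshold through the BARD1-expressing mean alone. AC108463.2 lies inside MIR4435-2HG on the opposite strand. The call of AC015922.3 was lost without BARD1-expressing replicate 2 (adjusted p = 0.0724, edgeR) and without control replicate 2 (0.0867), and DESeq2 did not call it (adjusted p = 0.0708).

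**Figure D2:**
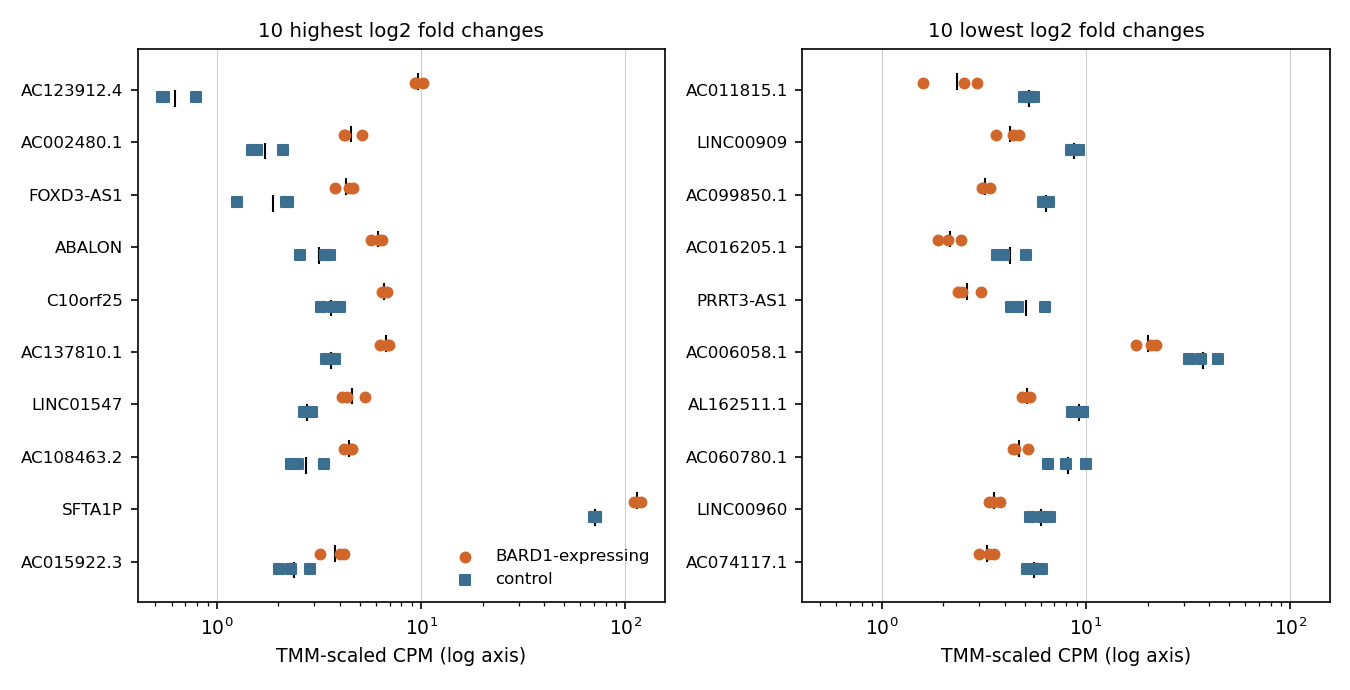
TMM-scaled CPM (log axis) in each library for called members whose groups do not overlap, the 10 at the top of the fold changes (left) and the 10 at the bottom (right). Orange circles are BARD1-expressing and blue squares control libraries, black ticks are group means; AC123912.4 has the widest gap, at 9.68 against 0.626 CPM.

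Lower members were led by genes of chromosome 18. Of the 5 members there 4 were lower, AC011815.1 at a log2 fold change of -1.17, LINC00909 at -1.02, AC016205.1 at -0.95 and LINC00667 at -0.63, and DLGAP1-AS2 at -0.09 was not called. LINC00909 (chr18:74591774-74598508) stood at 3.62, 4.71 and 4.38 CPM in BARD1-expressing libraries and at 8.42, 8.54 and 9.23 CPM in control libraries, so the groups did not overlap (adjusted p = 6.25e-06, edgeR). Most tested genes of the chromosome were lower, with 170 of 228 called lower, 4 called higher and a median log2 fold change of -0.66. These 5 were also the members whose 20 nearest expressed protein-coding genes had a median log2 fold change of at most -0.3. For 3 members that local median was at least 0.3, and 1 of them was higher. The 240 members between these limits held 24 of the 25 higher and 49 of the 53 lower calls. Outside chromosome 18 only AC099850.1 was at least 2-fold lower.

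AC099850.1 (chr17:59106598-59118267, plus strand) moved against SKA2, one of the 2 coding genes it overlaps. It stood at 3.38, 3.10 and 3.12 CPM in BARD1-expressing libraries and at 6.19, 6.35 and 6.60 CPM in control libraries. No BARD1-expressing library reached a control library, and its log2 fold change was -1.0 ± 0.160 (adjusted p = 3.36e-05, edgeR). SKA2, a gene of the complex that ties the kinetochore to spindle microtubules, lies on the other strand and was higher, with 174, 167 and 179 CPM in BARD1-expressing and 109, 116 and 109 CPM in control libraries. Its log2 fold change was 0.64. TRIM37, the other gene that AC099850.1 overlaps, was not called at 0.00 (adjusted p = 0.989, edgeR). The second antisense gene of the locus, AC099850.3, was higher at 0.27 together with PRR11, the cell cycle gene it overlaps, at 0.17. That call of AC099850.3 was lost without BARD1-expressing replicate 1 or 3 or control replicate 1 or 3 (adjusted p = 0.0593 to 0.0864, edgeR).

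**Figure D3:**
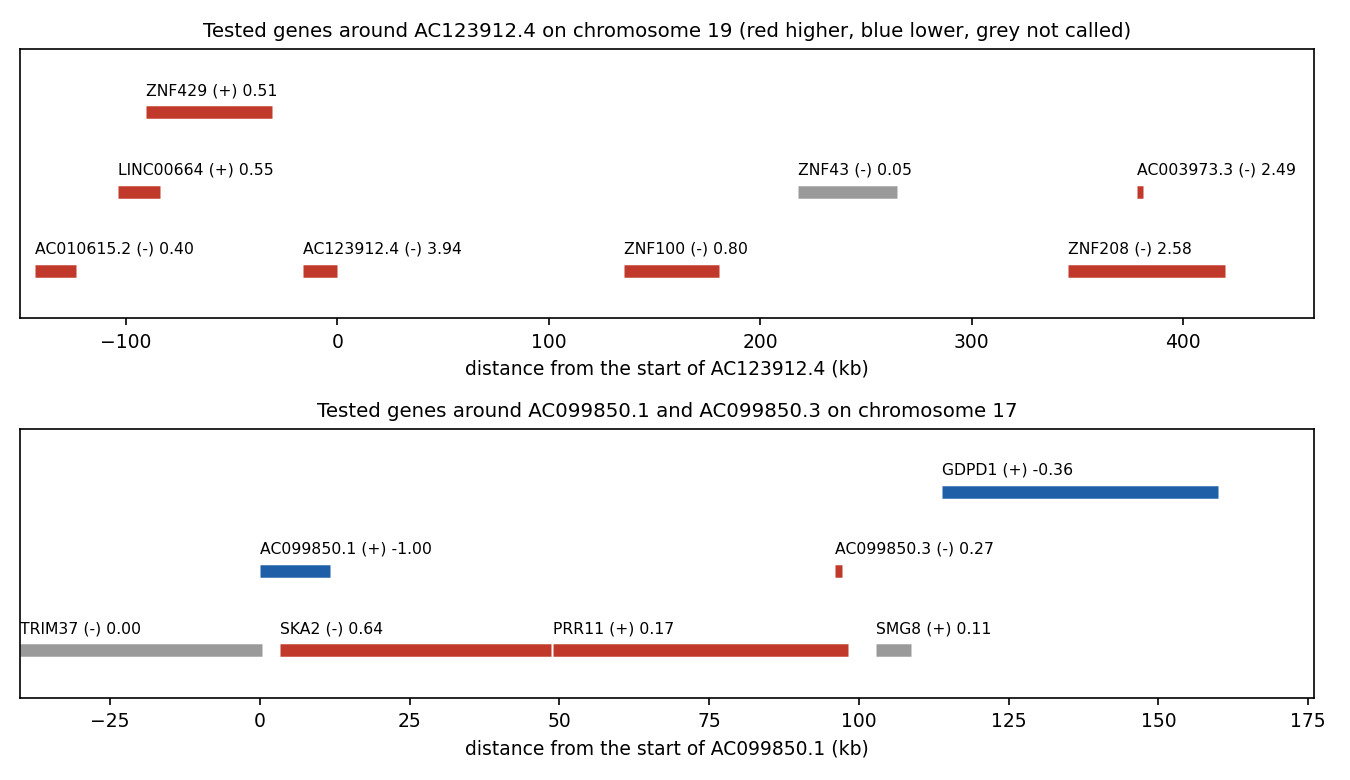
Tested genes around AC123912.4 on chromosome 19 (top) and AC099850.1 on chromosome 17 (bottom), drawn to scale against the distance from the start of each (kb), with strand and log2 fold change of BARD1-expressing over control cells. Red genes were called higher, blue lower and grey neither, with genes cut off at the window edges; AC099850.1 at -1.0 overlaps SKA2 at 0.64.

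PRRT3-AS1 at -0.92, AC006058.1 at -0.89, AL162511.1 at -0.85, AC060780.1 at -0.81, LINC00960 at -0.77 and AC074117.1 at -0.77 completed the 10 with the lowest fold change among called members without overlap between the groups. AC060780.1 overlaps BRCA1 on the same strand, and BRCA1 was lower at -0.25 (adjusted p = 0.036, edgeR). AC060780.1 also overlaps NBR1 at 0.13 and NBR2 at -0.27, which were not called. PRRT3-AS1, AC011815.1 and AC016205.1 met the level threshold through the control mean alone. AC006058.1 stood at 20.7, 22.1 and 17.5 CPM in BARD1-expressing libraries and at 44.0, 31.8 and 36.4 CPM in control libraries. It was the only one of these 10 above 10 CPM in both groups, and its libraries did not overlap.

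Pairs of a member with a coding gene were frequent, and calls in both partners mostly had the same sign. Where several coding genes overlap a member on the other strand, only that with the longest overlap was taken. Overlaps on the same strand, such as that of AC060780.1 with BRCA1, were not counted in these pairs. Of 121 members that overlap a tested protein-coding gene on the other strand, 38 were called, 37 of their partners were called, and in 14 pairs both were. These members were higher in 7.44% and lower in 24.0%, beside 16.5% and 12.4% of all tested genes. Among protein-coding genes of at least 3 CPM 19.0% were higher and 13.9% lower. Whether 14 pairs exceed the number that such shares would give was not tested. The sign was the same in 12 of these 14, and opposite in AC099850.1 with SKA2 and in AFAP1-AS1 at -0.15 with AFAP1, an actin filament gene, at 0.34. Exons of the 2 genes overlap in 98 of the 121 pairs, where reads cannot be told apart. Without exon overlap both partners were called in 3 pairs, 2 of them with the same sign. Of 26 members whose start lies within 2000 bases of a divergent coding gene, 3 were called together with it, all 3 with the same sign. Over all pairs, Pearson's r across genes was 0.19 for antisense pairs and 0.25 for divergent pairs, and these genes are not independent replicates.

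**Figure D4:**
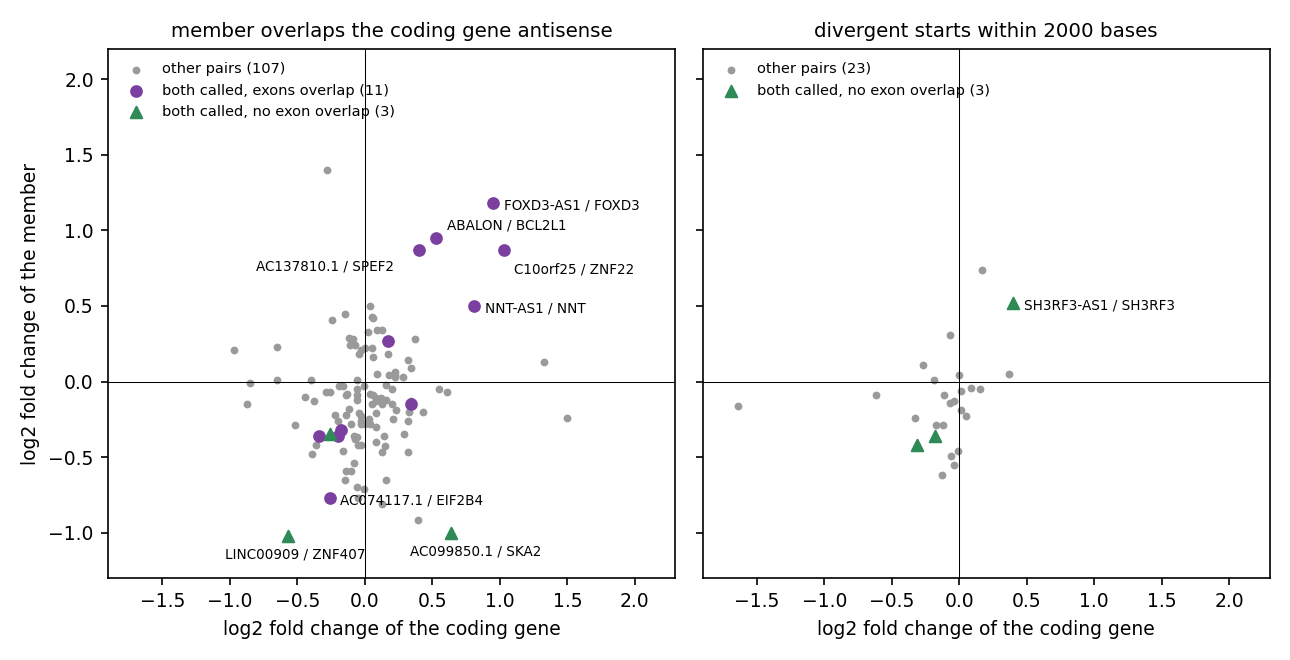
Log2 fold change (BARD1-expressing over control) of each member against that of its coding partner, for 121 antisense pairs (left) and 26 divergent pairs (right). Purple circles and green triangles are pairs with both genes called, with and without exon overlap, and grey points the rest; AC099850.1 with SKA2 lies at the lower right of the left panel.

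Of the 82 members of at least 10 CPM 14 (17.1%) were higher and 24 (29.3%) lower, beside 16.5% and 12.4% of all tested genes. Those shares of all tested genes are over genes of any level, and none was taken for genes of at least 10 CPM. Level was compared between genes as CPM per kilobase of gene length (CPM per kb), which had a median of 2.55 over members and 7.05 over the protein-coding genes. The 10 members with most counts held 36.5% of all member counts. SFTA1P, a transcribed surfactant pseudogene, ranked 1st per length. It stood at 119, 110 and 114 CPM in BARD1-expressing libraries and at 72.1, 69.8 and 71.6 CPM in control libraries, without overlap, and its log2 fold change was 0.68 ± 0.0563 (adjusted p = 1.27e-09, edgeR). NORAD, which binds PUMILIO proteins and is linked to genome stability, stood at 381, 374 and 385 CPM in BARD1-expressing libraries and at 323, 329 and 332 CPM in control libraries. Its groups did not overlap either, though the log2 fold change was only 0.21 ± 0.0466 (adjusted p = 0.00119, edgeR). UCA1, a carcinoma-linked RNA, was higher at 0.26. AC011451.1 was lower at -0.32, SNHG8 at -0.53, and FGD5-AS1 at -0.03 and AC245041.1 at -0.08 were not called.

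The nuclear RNAs NEAT1 and MALAT1 are neighbours on chromosome 11. RNA was selected through its poly(A) tail, so forms of either without a tail were read poorly. NEAT1, the scaffold of paraspeckles, stood at 28.2, 38.0 and 25.5 CPM in BARD1-expressing libraries and at 77.5, 47.8 and 53.6 CPM in control libraries. The groups did not overlap, control replicate 1 was the highest library, and the log2 fold change of -0.94 ± 0.274 was not called (adjusted p = 0.073, edgeR). Without control replicate 1 it was -0.72 and called (adjusted p = 0.00637), as it was by DESeq2 (-0.96, adjusted p = 0.00447). MALAT1, an RNA of nuclear speckles, stood at 97.8, 96.2 and 78.3 CPM in BARD1-expressing libraries and at 83.5, 59.3 and 67.7 CPM in control libraries. Those values overlap, and its log2 fold change of 0.37 was not called either (adjusted p = 0.134, edgeR), but was without control replicate 1 (0.51, adjusted p = 0.000228) or without BARD1-expressing replicate 3 (0.46, adjusted p = 0.0101). DESeq2 (0.37, adjusted p = 0.00416) and edgeR with no filter on low counts (0.36, adjusted p = 5.49e-06) also called it.

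**Figure D5:**
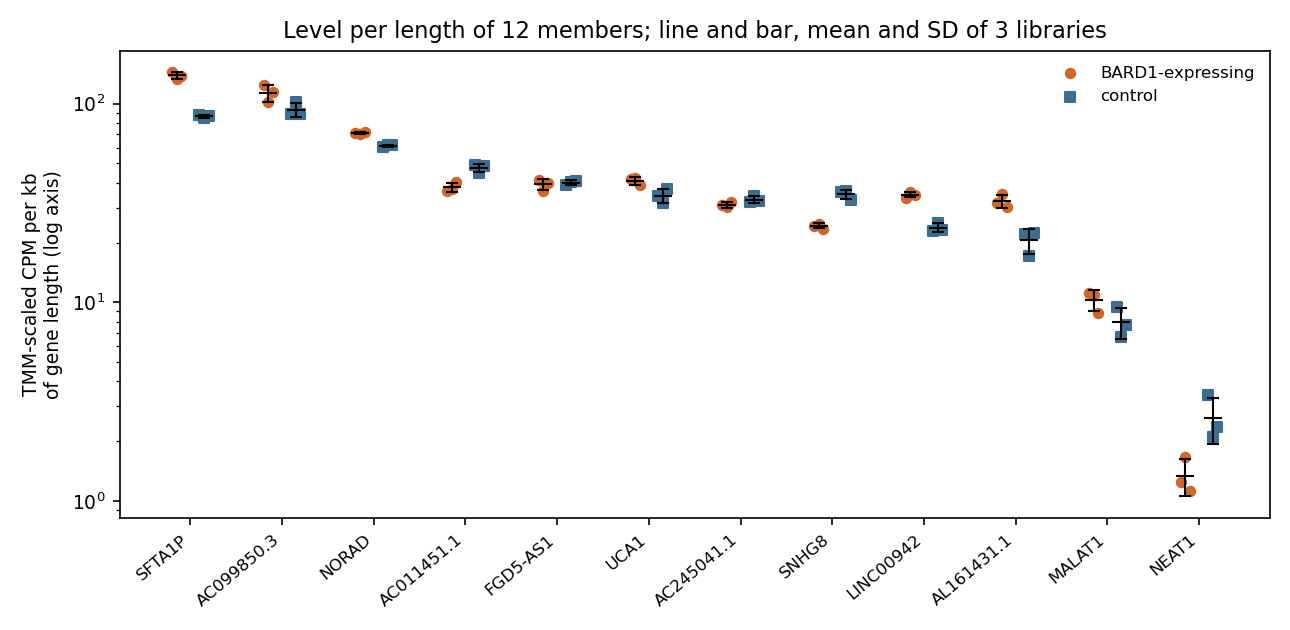
TMM-scaled CPM per kb of gene length (log axis) in each library for 12 members, the 8 highest per length followed by LINC00942, AL161431.1, MALAT1 and NEAT1. Orange circles are BARD1-expressing and blue squares control libraries, with mean and SD of 3; SFTA1P lies near 139 against 86.4 CPM per kb.

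Calls among hosts of small RNAs rest on short lists. Of 11 members on the list of snoRNA host genes, whose introns mostly carry guides for the modification of ribosomal RNA, 0 were higher and 3 lower by edgeR, with a median log2 fold change of -0.16, beside -0.09 over members and -0.00 over all tested genes. The same call took 10.1% of members as higher and 21.4% as lower, and 16.5% and 12.4% of all tested genes. At an unadjusted p under 0.05 the count higher was also 0, and DESeq2 called 0 higher and 2 lower. SNHG8 stood at 22.4, 23.0 and 21.7 CPM in BARD1-expressing libraries and at 33.0, 33.6 and 30.3 CPM in control libraries. SNHG12 stood at 21.5, 25.9 and 23.6 CPM in BARD1-expressing libraries and at 45.5, 31.4 and 35.2 CPM in control libraries. For neither gene did the groups overlap, at log2 fold changes of -0.53 ± 0.0801 (adjusted p = 1.63e-05, edgeR) and -0.65 ± 0.126 (adjusted p = 0.00176). SNHG19 at -0.62 did overlap, and its call was lost without control replicate 1 (-0.41, adjusted p = 0.218), control replicate 3 or BARD1-expressing replicate 1, and by DESeq2 (-0.64, adjusted p = 0.0843). Control replicate 1 was the highest control library for 8 of the 11 hosts, and its part in the result was not tested for the list. By annotation 13 members hold a snoRNA gene, of which edgeR called 0 higher (0 also at an unadjusted p under 0.05 and by DESeq2) and 5 lower, and 12 had a log2 fold change below 0. The RefSeq transcripts of SNHG12 and SNHG19 begin with cctttctccc and cttttcgggg, and that of SNHG8 with cacattcggg.

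Of 10 members on the list of microRNA host genes 1 was higher and 4 were lower, with a median of -0.16. Over all tested genes 16.5% were higher and 12.4% lower. MIR4435-2HG stood at 87.9, 87.0 and 88.2 CPM in BARD1-expressing libraries and at 66.3, 66.6 and 65.4 CPM in control libraries. The groups were tight and apart, at a log2 fold change of 0.41 ± 0.0571 (adjusted p = 5.76e-06, edgeR). Its copy CYTOR was higher at 0.30, and because the 2 genes share sequence their separate values are uncertain. MIR193BHG stood at 5.58, 5.57 and 5.71 CPM in BARD1-expressing libraries and at 8.66, 9.11 and 8.63 CPM in control libraries, a log2 fold change of -0.65 ± 0.129 (adjusted p = 0.00047, edgeR). MIR4458HG at -0.63, MIR22HG at -0.38 and PVT1 at -0.38 were the other lower hosts, and the call of MIR4458HG was lost without BARD1-expressing replicate 2. A microRNA hairpin lies inside 15 members by annotation, of which 2 were higher and 3 lower. The mature microRNAs themselves were not measured.

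The other lists, some of which share genes, moved in both directions. Their counts stand beside 16.5% higher and 12.4% lower over all tested genes, and 10.1% and 21.4% over members. Of 5 members linked to p53 and DNA damage NORAD was higher, and LINP1, a scaffold of DNA end joining, at -0.40 and PVT1, a neighbour of MYC, were lower. LINP1 averaged 37.6 ± 0.403 CPM in BARD1-expressing and 49.7 ± 0.819 CPM in control cells (SD, n = 3 each), with no overlap (adjusted p = 5.6e-05, edgeR). Of 6 linked to endothelium and angiogenesis edgeR called 3 lower, PVT1, NR2F2-AS1 at -0.71 and MYOSLID at -0.54, and 0 higher. At an unadjusted p under 0.05, 1 was higher, and DESeq2 called 1 higher. The call of MYOSLID was lost without BARD1-expressing replicate 2 or 3 or control replicate 1 or 2 (adjusted p = 0.0508 to 0.143), and by DESeq2 (0.131), and it met the level threshold through the control mean alone. Of 22 carcinoma-linked members 4 were higher (FOXD3-AS1, UCA1, CYTOR and PCAT7) and 5 lower (HAGLR, PVT1, AFAP1-AS1, LINC01116 and VPS9D1-AS1), with a median of 0.06. The call of PCAT7 was lost without replicate 2 of either group, that of AFAP1-AS1 without BARD1-expressing replicate 3 or control replicate 2 or 3, and that of VPS9D1-AS1 without BARD1-expressing replicate 1 or 2 or control replicate 2 or 3 and by DESeq2. HAGLR, the HOXD antisense gene at -0.48, was the only member of the HOX list. Of 6 members linked to epithelial-mesenchymal transition and TGF-beta 1 was higher and 3 lower, LOXL1-AS1 at -0.65 among them. Of 10 linked to NF-kB, interferon and inflammation 1 was higher and 2 lower, and of 5 linked to hypoxia 1 was higher (UCA1) and 1 lower (LINC01116). Leaving out BARD1-expressing replicate 3 or control replicate 1 or 2 ended the call of LINC01116 (adjusted p = 0.0977 to 0.107, edgeR), and each of these and BARD1-expressing replicate 2 ended that of NRAV, an RNA linked to antiviral genes (0.0642 to 0.124). DESeq2 called neither LINC01116 (adjusted p = 0.102) nor NRAV (0.105). Of 5 nuclear body and architectural RNAs, with a median of 0.21, edgeR called 2 higher (NORAD and CYTOR) and 0 lower. NEAT1, MALAT1 and KCNQ1OT1 of this list were not called by edgeR. At an unadjusted p under 0.05, 2 were higher and 1 lower, and DESeq2 called 3 higher and 1 lower. The 3 imprinted RNAs (ZNF667-AS1 at -0.26, KCNQ1OT1 at -0.27 and PWAR6 at -0.05) and FTX of the X inactivation centre at -0.05 had 0 calls by edgeR or DESeq2 and 0 at an unadjusted p under 0.05. With single libraries left out, edgeR called KCNQ1OT1 lower without BARD1-expressing replicate 2 and ZNF667-AS1 lower without BARD1-expressing replicate 1. Over the alternative fits their log2 fold changes ran from -0.78 to -0.09 and from -0.44 to -0.15.

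Promoter letters were compared over the 114 members with a RefSeq promoter of the same symbol, 250 bases before to 50 after the start. These RefSeq starts lay within 100 bases of the start annotated for the counted gene in 78 members and farther in 36, up to 36046 bases, so the letters can belong to another start than the counted one. Motifs were searched on both strands and a match is a description only. The GC box GGGCGG was in 57.9% of these members and 45.0% of all 35116 promoters, CCAAT in 43.0% and 34.6%, and the antioxidant response element core TGACNNNGC in 22.8% and 13.3%. The E-box CACGTG was in 11.4% and 7.26%, the AP-1 motif TGANTCA in 8.77% and 7.71%, TATAAA in 8.77% and 11.5%, the CRE TGACGTCA in 2.63% and 1.85%, and the core of the interferon-stimulated response element in 4.39% and 3.57%. Among called members the E-box was in 4 of 12 higher and 0 of 23 lower promoters, and the GC box in 3 of 12 and 15 of 23. In the same higher and lower promoters CCAAT was in 4 and 11, and the antioxidant response element core in 3 and 6. The AP-1 motif was in 2 and 2, TATAAA in 1 and 2, the CRE in 1 and 0 and the interferon-stimulated core in 0 and 0. The 2 higher promoters with the AP-1 motif are those of the copies CYTOR and MIR4435-2HG, whose shared run of 111 bases holds the same site. These differences were not tested.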

How the data were processed

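RNA from 3 BARD1-expressing and 3 control libraries was measured by poly(A)-selected sequencing, per the labels' protocols. The authors deposited raw read counts per gene, with position, length and biotype. The submitters' processing notes name GRCh38, DESeq2 1.20.0, featureCounts 1.5.0-p3 and HISAT2 2.0.5, without options. Coordinates and lengths of all 248 members equal those of GENCODE release 29.

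These counts went into edgeR 4.0.16 under R 4.3.3 (filterByExpr, TMM scaling, robust quasi-likelihood F test on group alone, 4 residual degrees of freedom), over 15400 genes with Benjamini-Hochberg adjustment and a threshold of 0.05. CPM values are TMM-scaled except where they set membership. The test was run on simulated data first. Replicates are labelled biological, but nothing states separate cultures or transductions, so the p-values reflect only how far these libraries vary. Replicate pairs differed by a chi-square per degree of freedom of 3.41 to 8.11, so all 6 were kept. Member counts rest on 12744310 to 24349158 counts per library.

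Members and gene lists were chosen with earlier results of these data known. Named members are the 8 highest per length, the 10 highest and 10 lowest called fold changes without overlap, up to 4 per list by p, the 6 pairs by p and the 3 genes on each side of the threshold. Others were chosen after their values were seen. Alternatives were 2 other scalings, DESeq2 1.42.0, no low-count filter, a replicate block, each library left out, other level thresholds, leaving out chromosome 18, and members that overlap no other tested gene. Sequences are from RefSeq (GRCh38.p14) and GENCODE release 29. Leukocyte markers are not reported here.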

Additional observations from a re-analysis of the deposited data

How the results depend on the processing

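Over 11 alternative fits 48 of the 78 called members (18 higher and 30 lower) kept their call in every fit, 30 lost it in at least 1, 28 uncalled members gained one and no called member changed sign. DESeq2 called 22 members higher and 37 lower. Leaving out each library in turn gave 21 to 30 members higher and 37 to 50 lower, 2 to 4 at least 2-fold higher, 1 to 5 at least 2-fold lower and a median log2 fold change of -0.11 to -0.06. The count at least 2-fold lower was 1 without BARD1-expressing replicate 3 or control replicate 3, and 5 without control replicate 2. Among named members 2 uncalled ones changed sign, FGD5-AS1 (-0.08 to 0.02 over single libraries left out, above 0 without BARD1-expressing replicate 2) and FTX (-0.16 to 0.11, with 0.05 without BARD1-expressing replicate 3 and 0.11 without control replicate 1). Other thresholds change the genes counted. A mean of at least 1 CPM gave 45 higher, 83 lower, 17 and 16 at least 2-fold higher and lower, and a median of -0.12. A mean of at least 10 CPM gave 14, 24, 0 and 0. At least 3 CPM in each group left 0 at least 2-fold higher. Outside chromosome 18, 1 was at least 2-fold lower. Members that overlap no other tested gene gave 10 higher, 17 lower, 1 at least 2-fold higher and 0 at least 2-fold lower. Replicate numbers did not pair the libraries (correlations of deviations -0.11, -0.03 and -0.01, and 0 libraries closest to their own number). With the replicate block 23 members were higher and 46 lower, 3 and 2 at least 2-fold, the median was -0.08 and BARD1 stood at 1.37. Of described members the block ended the calls of SNHG19 (-0.60, adjusted p = 0.0754), MYOSLID (-0.53, adjusted p = 0.0517) and AFAP1-AS1, and gave one to MALAT1 (0.38, adjusted p = 0.00117). Counts near the threshold, from 12 per library, limit the precision for weakly expressed members.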
